A study of Arabidopsis thaliana with 27 samples.

Results

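Genes of the flavonoid and anthocyanin pathway were followed through 27 RNA-seq libraries of *Arabidopsis thaliana* *MSH1* epi-lines and their wild type. They were chosen by name, as enzymes and regulators of the pathway, and are 10 of the 33977 genes counted: *CHS* (AT5G13930), *CHI* (AT3G55120), *F3H* (AT3G51240), *F3'H* (AT5G07990), *FLS1* (AT5G08640), *DFR* (AT5G42800), *LDOX* (AT4G22880), *MYB12* (AT2G47460), *PAP1* (AT1G56650) and *TT8* (AT4G09820). The rule uses no measured value, but the genes were chosen with earlier results of these data known. MSH1 is a nuclear-encoded protein of plastids and mitochondria, and an epi-line descends from a cross of a wild-type plant with an *msh1* mutant, through progeny that carry the wild-type *MSH1* allele.

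The libraries fell into 9 groups of 3 plants, with 1 library per plant. In leaf, taken at bolting according to the labels, Epi 8 and Epi 10 were set against WT. The study's methods describe the leaf plants by an age in weeks and name leaf RNA of Epi 8 and WT only, so that Epi 10 leaf rests on the labels. In root, Epi 8 and Epi 24 were set against WT, with all plants 10 days old. The same lines were set against WT in floral stem, with all plants 6 weeks old. Epi 8 and Epi 24 were F3 families of one cross of Col-0 WT, as the female, with an *msh1* T-DNA mutant, Epi 10 was an F3 family of another such cross, and WT was Col-0. Each epi-line is thus 1 selfed family, and its 3 plants come from that family. Stem and leaf plants grew on peat mix and root plants on a half-strength Murashige and Skoog medium, so that organ, age, growth medium and sequencing depth cannot be told apart. Epi 24 leaf and Epi 10 stem or root were not analysed here. The hour of harvest was not given in the sources used here.

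Leaf libraries held 48098795 to 90808615 counted reads, root libraries 18524351 to 20041205 and floral stem libraries 18465252 to 21219383. The labelled organs were checked with marker genes: 4 root genes summed to between 173 and 386 CPM (counts scaled to library size, on one scale for all libraries) in root and to at most 0.512 CPM elsewhere, and the summed secondary-wall cellulose synthases *CESA4*, *CESA7* and *CESA8* had 20.4 to 34.5 CPM in leaf, 66.0 to 158 CPM in root and 507 to 5933 CPM in floral stem. The 4 leaf genes, which mark green tissue, did not separate leaf from floral stem, with 27010 to 38160 CPM in leaf, 172 to 436 CPM in root and 28440 to 44440 CPM in floral stem. *MSH1* itself lay at 17.3 to 21.5 CPM in epi-line leaves against 18.0 to 23.6 CPM in WT leaves, and its ranges overlapped in stem and root as well.

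Flavonoids are made from phenylalanine by way of coumaroyl-CoA. Chalcone synthase (CHS) makes the first flavonoid skeleton, chalcone isomerase (CHI) closes its ring, and the hydroxylases F3H and F3'H prepare dihydroflavonols. There the pathway forks: flavonol synthase (FLS1) leads to flavonols, while dihydroflavonol reductase (DFR) and leucoanthocyanidin dioxygenase (LDOX, also called anthocyanidin synthase) lead to anthocyanins and, in the seed coat, proanthocyanidins. In Arabidopsis, MYB12 and its relatives MYB11 and MYB111 activate the early genes and *FLS1*, whereas PAP1 (MYB75), with bHLH partners such as TT8 and the WD40 protein TTG1, activates the late genes. Flavonols screen ultraviolet light and modulate auxin transport, and anthocyanins colour vegetative organs under strong light, cold, sugar or nutrient shortage.

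The stretches of 250 bases before the annotated start of 2 early and 2 late enzyme genes are shown because these members gave the organ pattern and the plant-to-plant pattern described further on. They come from the RefSeq genome TAIR10.1, and the capitals mark matches to 3 short sequences on either strand: ACCNACC and ACCNAAC, both read by MYB proteins, and ACGT, the core read by bZIP proteins, which also lies inside the G-box CACGTG.
CHS (chr5:4488226-4488475, plus strand): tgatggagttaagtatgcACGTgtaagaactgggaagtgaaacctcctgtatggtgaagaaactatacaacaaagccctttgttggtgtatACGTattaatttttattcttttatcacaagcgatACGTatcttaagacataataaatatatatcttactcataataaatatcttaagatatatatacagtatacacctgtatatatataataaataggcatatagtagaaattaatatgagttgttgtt
F3H (chr3:19024942-19025191, plus strand): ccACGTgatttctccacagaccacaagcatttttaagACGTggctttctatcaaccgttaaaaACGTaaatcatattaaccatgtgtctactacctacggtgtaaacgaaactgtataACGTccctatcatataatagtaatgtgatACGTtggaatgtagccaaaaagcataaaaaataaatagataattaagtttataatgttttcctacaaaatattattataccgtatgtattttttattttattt
DFR (chr5:17166033-17166282, minus strand): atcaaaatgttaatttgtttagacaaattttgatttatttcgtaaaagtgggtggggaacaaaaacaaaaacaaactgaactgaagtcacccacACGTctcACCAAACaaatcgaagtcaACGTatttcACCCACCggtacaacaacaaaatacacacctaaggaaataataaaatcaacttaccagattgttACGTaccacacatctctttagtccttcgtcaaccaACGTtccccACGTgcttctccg
LDOX (chr4:12006210-12006459, minus strand): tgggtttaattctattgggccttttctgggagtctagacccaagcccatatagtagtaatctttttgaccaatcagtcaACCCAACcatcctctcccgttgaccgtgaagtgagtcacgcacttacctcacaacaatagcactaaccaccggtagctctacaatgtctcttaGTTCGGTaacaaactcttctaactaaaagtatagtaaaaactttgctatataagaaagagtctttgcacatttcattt
Among the 10 members, ACCNACC stood in 3 of these windows, against 6.1% of 27443 protein-coding promoters of the same length. ACCNAAC stood in 5 of 10, against 14.5% of all promoters, and the G-box CACGTG in 4 of 10, against 6.5%. ACGT, which includes every G-box, stood in 5 of 10, against 44.1%, and the E-box CANNTG, which also includes it, in 7 of 10, against 55.3%. With 50 bases after the start added, the counts were 4, 5, 5, 8 and 7 of 10 in the same order, against 7.4, 17.2, 7.7, 49.9 and 61.7% of all promoters. These are matches of letters and not measured binding sites.

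In WT plants *CHS*, *CHI*, *F3H* and *FLS1* were highest in root, *F3'H* and *MYB12* were far lower in leaf than in root or floral stem, and the late genes and *PAP1* were highest in leaf. For *DFR* this rested on WT leaf plant 3. Without that plant the WT leaf mean of *DFR* was 0.0689 CPM, beside 0.08635 CPM in WT root. Per kilobase of exon, *CHS* led in every organ, with a level of 15.3 CPM per kb in WT leaf, 172 in WT root and 48.1 in WT floral stem. In root it was followed by *F3H* at 39.0, *CHI* at 35.7 and *FLS1* at 32.6 CPM per kb, while *F3'H* and *MYB12* stood at 3.35 and 2.32. The means of *F3H*, *CHI* and *FLS1* there differed by less than the spread between plants. In leaf, *PAP1* was the second highest member at 8.99 CPM per kb, ahead of *CHI* at 6.77 and *FLS1* at 5.87, although its order there rests on 1 WT plant. In floral stem *PAP1* had 0.339 CPM per kb, below *F3H* at 13.2 and *FLS1* at 11.4.

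**Figure D1:**
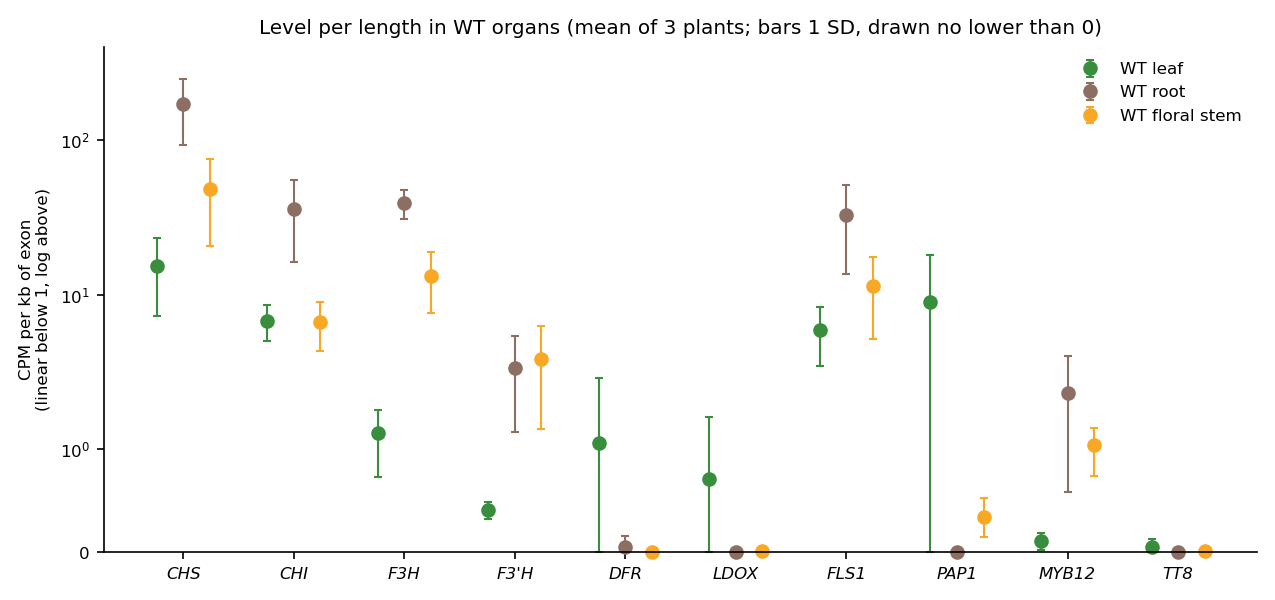
Mean level of each member in WT leaf, root and floral stem, in CPM per kilobase of exon on an axis that is linear below 1 and log above, with points for the mean of 3 plants and bars for the SD. *CHS* was highest in each organ, and *PAP1*, *DFR* and *LDOX* were highest in leaf, *DFR* only through WT leaf plant 3.

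Tested across the 22442 genes of the 27-library fit, with a call at a false discovery rate (FDR) under 0.05 and a log2 fold change (log2FC) of at least 0.5 in size, 5 of the 9 members tested differed between WT root and WT floral stem, where 60.9% of all genes were called. *CHS* (log2FC 1.83 ± 0.55, FDR = 0.00568), *CHI* (log2FC 2.41 ± 0.39, FDR = 1.24e-05), *F3H* (log2FC 1.56 ± 0.42, FDR = 0.00261) and *FLS1* (log2FC 1.51 ± 0.57, FDR = 0.0241) were higher in root, against 28.7% of all genes. *PAP1* was the 1 member lower in root, against 32.2% of all genes: it had no read in any of the 9 root libraries, and its WT floral stem mean lay at least 2.97-fold above the root level that 3 counts per library would give. *PAP1* entered the fit through its leaf and floral stem reads only. *F3'H* (log2FC -0.19 ± 0.58, FDR = 0.786) did not pass, nor did *DFR* and *LDOX*, whose WT means were at or under the floor of 3 counts in both organs. *FLS1* lost its call without WT root plant 1 (FDR = 0.101), without WT root plant 3 (FDR = 0.0782) or without WT floral stem plant 3 (FDR = 0.109). *MYB12* (log2FC 1.13 ± 0.53, FDR = 0.066) missed the limit and passed it without WT root plant 1 (FDR = 0.0399) or plant 3 (FDR = 0.0304).

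Between WT leaf and WT floral stem, 7 of 9 members were called, beside 60.3% of all genes. The 4 that were lower in leaf, against 31.2% of all genes, were *CHS* (log2FC -1.66 ± 0.55, FDR = 0.0113), *F3H* (log2FC -3.38 ± 0.46, FDR = 1.29e-06), *F3'H* (log2FC -3.22 ± 0.64, FDR = 0.00013) and *MYB12* (log2FC -3.29 ± 0.59, FDR = 4.76e-05). The 3 that were higher in leaf, against 29.1% of all genes, were *PAP1* (log2FC 4.70 ± 0.79, FDR = 5.77e-05), *DFR* (FDR = 0.0218) and *LDOX* (FDR = 0.0161). *DFR* and *LDOX* had too few reads to be tested within floral stem or root. They entered this fit through their leaf reads, so the filter favoured a call higher in leaf and their calls are no separate support. *DFR* had no read in WT floral stem, and its WT leaf mean was at least 9.63-fold above the level of 3 counts per library there. That bound needs WT leaf plant 3, since the mean of the other 2 WT leaves lay below that level. *CHI* (log2FC 0.01 ± 0.38, FDR = 0.999) and *FLS1* (log2FC -0.96 ± 0.57, FDR = 0.144) did not pass. The calls of both late genes rested on few reads in few plants: without WT leaf plant 3 the FDR was 0.315 for *DFR* and 0.106 for *LDOX*. Leaving out single WT floral stem plants also took *DFR* to an FDR of 0.0518 to 0.0541, and *LDOX* to 0.0546 without plant 1 and 0.0525 without plant 3. *CHS* lost its call without WT leaf plant 1 (FDR = 0.0622) or WT floral stem plant 2 (FDR = 0.0711).

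Between WT leaf and WT root, 8 of 9 members were called, beside 68.5% of all genes. The 6 that were lower in leaf, against 35.9% of all genes, were *F3H* (log2FC -4.95 ± 0.49, FDR = 5.22e-09), *MYB12* (log2FC -4.42 ± 0.60, FDR = 8.02e-07), *CHS* (log2FC -3.49 ± 0.59, FDR = 1.41e-05), *F3'H* (log2FC -3.02 ± 0.63, FDR = 0.000179), *FLS1* (log2FC -2.48 ± 0.58, FDR = 0.00065) and *CHI* (log2FC -2.40 ± 0.39, FDR = 7.62e-06). *PAP1* (FDR = 1.09e-06) and *LDOX* (FDR = 0.00464) were higher in leaf, against 32.7% of all genes. Neither had reads to be tested within root: *LDOX* entered the fit through leaf and *PAP1* through leaf and floral stem. The filter thus favoured this direction for both. Against root libraries without a read, the WT leaf mean was at least 78.6-fold higher for *PAP1* and at least 7.88-fold higher for *LDOX*. Without WT leaf plant 3 these bounds were 33.1-fold and 2.03-fold. *DFR* (FDR = 0.0561) missed the limit. It passed without WT leaf plant 1 (FDR = 0.0369), WT leaf plant 2 (FDR = 0.0333) or WT root plant 1 (FDR = 0.04), and its log2FC was -0.28 without WT leaf plant 3. In bulk tissue, fewer cells of a type that makes a transcript and less of it per cell cannot be told apart, in these and all following comparisons.

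**Figure D2:**
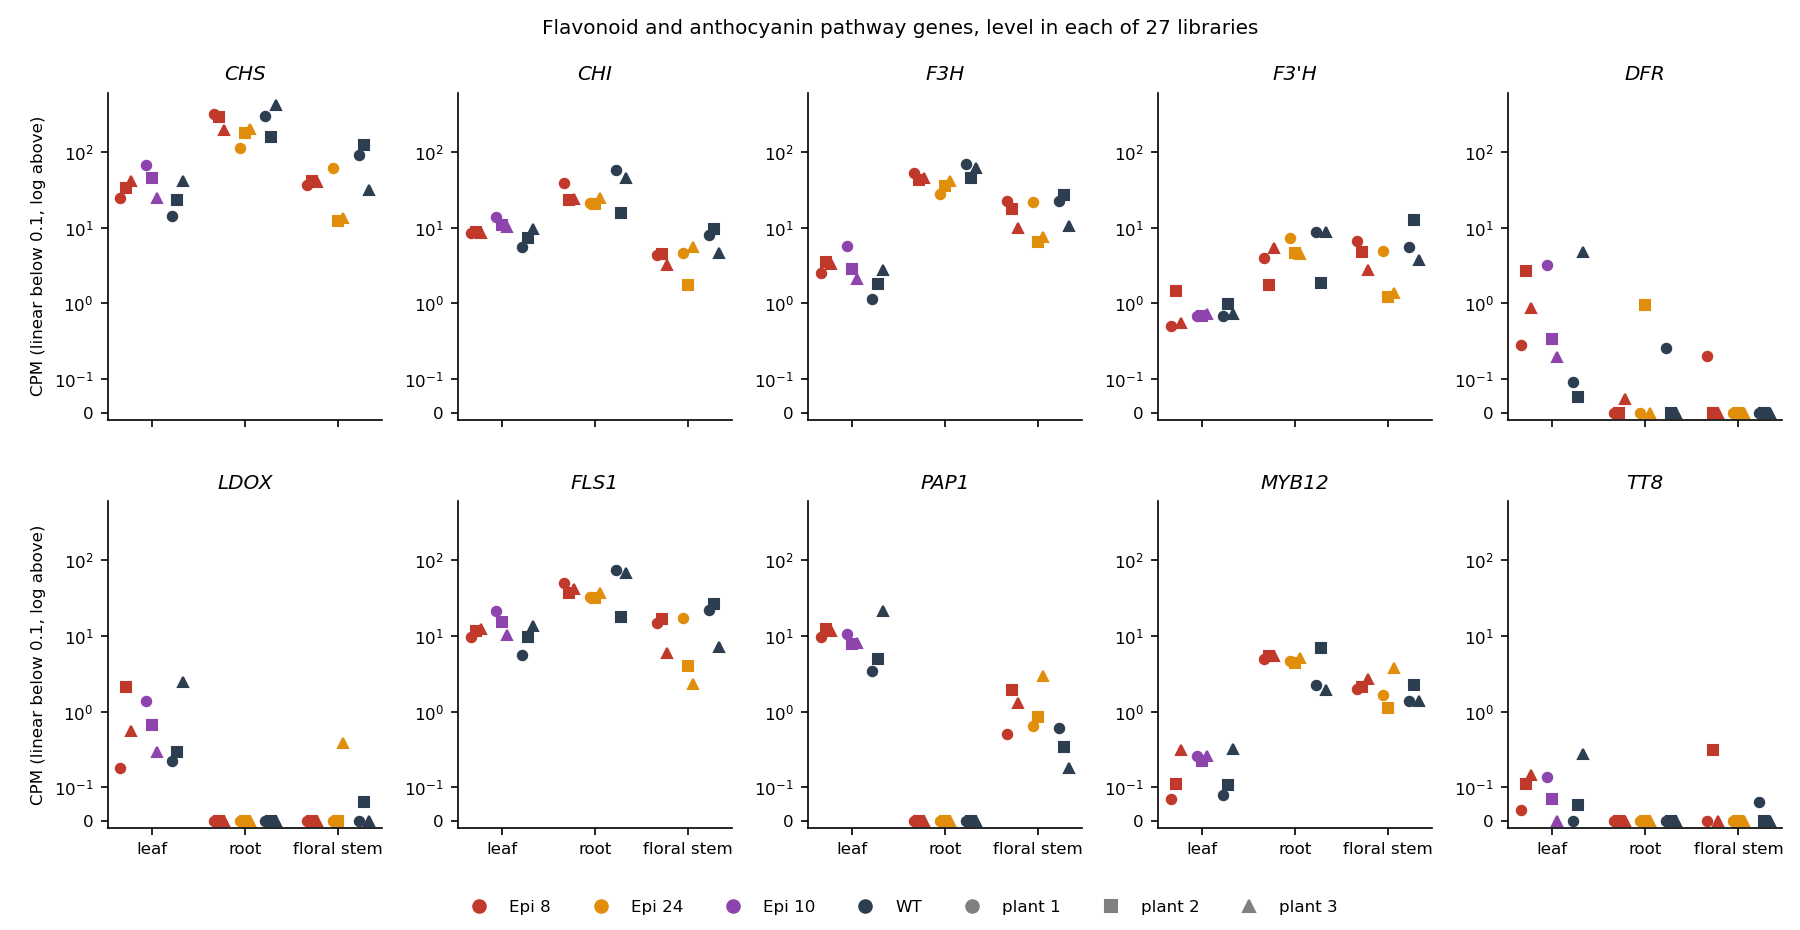
Level of each of the 10 members in every library, in CPM on an axis that is linear below 0.1 and log above, with leaf, root and floral stem from left to right and Epi 8, Epi 24 or Epi 10, and WT from left to right within each organ; the symbols stand for plants 1, 2 and 3. *CHS*, *CHI*, *F3H* and *FLS1* were highest in root, and *DFR*, *LDOX* and *PAP1* in leaf.

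*CHS*, the entry enzyme, was the most abundant member. In root it had 314, 288 and 195 CPM in the Epi 8 plants, 114, 179 and 201 CPM in the Epi 24 plants, and 300.3, 155 and 422 CPM in the WT plants. The Epi 24 roots lay below WT plants 1 and 3, and the ranges overlapped through WT plant 2. In floral stem the values were 36.3, 41.6 and 40.3 CPM in the Epi 8 plants, 61.9, 12.2 and 13.4 CPM in the Epi 24 plants, and 92.0, 123 and 31.1 CPM in the WT plants. The Epi 24 stems thus ran below WT except for plant 1, and the Epi 8 stems were nearly equal to each other and lay within the WT range. In leaf it had 24.6, 33.1 and 41.3 CPM in the Epi 8 plants, 66.4, 44.8 and 24.5 CPM in the Epi 10 plants, and 14.2, 23.2 and 40.7 CPM in the WT plants, with overlapping groups. Epi 24 against WT gave log2FC -1.50 ± 0.64, unadjusted p = 0.0422, FDR = 0.808 in floral stem and log2FC -0.84 ± 0.29, unadjusted p = 0.012, FDR = 0.673 in root. Epi 8 against Epi 24 in root gave log2FC 0.68 ± 0.29, unadjusted p = 0.0349, FDR = 0.411, and none of these passed. The start of the annotated gene overlaps AT5G13940 on the opposite strand by 2 bases, with 0 to 30 reads there against 230 to 9813 for *CHS*.

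*CHI* had 39.0, 23.5 and 23.9 CPM in the Epi 8 plants, 20.9, 20.2 and 24.3 CPM in the Epi 24 plants, and 57.7, 15.6 and 45.8 CPM in the WT plants in root. WT plant 2 was the lowest of the 9 root plants and the other WT plants were the highest. In floral stem it had 4.35, 4.51 and 3.18 CPM in the Epi 8 plants, 4.66, 1.74 and 5.56 CPM in the Epi 24 plants, and 8.0, 9.72 and 4.6 CPM in the WT plants, and the 3 Epi 8 stems lay below all WT stems (log2FC -0.87 ± 0.43, FDR = 0.613). In leaf it had 8.55, 8.75 and 8.43 CPM in the Epi 8 plants, 14.0, 10.7 and 10.1 CPM in the Epi 10 plants, and 5.63, 7.37 and 9.58 CPM in the WT plants. All Epi 10 leaves lay above all WT leaves and all Epi 8 leaves. Against WT this was log2FC 0.62 ± 0.19, unadjusted p = 0.00806, FDR = 0.683, which did not pass. In root, Epi 24 against WT gave log2FC -0.88 ± 0.34, unadjusted p = 0.02, FDR = 0.673.

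*F3H*, the hydroxylase that makes dihydrokaempferol, had the smallest unadjusted p of any member in a comparison of lines. It had 53.4, 43.0 and 45.9 CPM in the Epi 8 plants, 27.4, 35.5 and 41.2 CPM in the Epi 24 plants, and 69.4, 44.9 and 62.2 CPM in the WT plants there. All Epi 24 roots lay below all WT roots and below all Epi 8 roots. The Epi 24 contrast with WT was log2FC -0.77 ± 0.18, unadjusted p = 0.000653, FDR = 0.555, with an FDR between 0.0506 and 0.958 over the alternative settings tried. In floral stem *F3H* had 22.2, 17.4 and 9.93 CPM in the Epi 8 plants, 21.6, 6.4 and 7.63 CPM in the Epi 24 plants, and 22.3, 26.8 and 10.6 CPM in the WT plants, so the ranges overlapped. In leaf it had 2.52, 3.51 and 3.36 CPM in the Epi 8 plants, 5.79, 2.89 and 2.09 CPM in the Epi 10 plants, and 1.15, 1.82 and 2.76 CPM in the WT plants. All 6 epi-line leaves lay above WT plants 1 and 2, the ranges overlapped through WT plant 3, and Epi 10 against WT gave log2FC 0.91 ± 0.40, unadjusted p = 0.0433, FDR = 0.683. The gene overlaps AT3G51238 on the opposite strand, which took 0 to 69 reads against 88 to 1608 for *F3H*, and whether reads were counted by strand is not given in the sources used here.

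*F3'H*, which adds the hydroxyl group that separates quercetin from kaempferol and cyanidin from pelargonidin, was read at much lower levels. In root it had 4.03, 1.73 and 5.41 CPM in the Epi 8 plants, 7.39, 4.66 and 4.52 CPM in the Epi 24 plants, and 8.77, 1.87 and 8.76 CPM in the WT plants. In floral stem it had 6.76, 4.77 and 2.73 CPM in the Epi 8 plants, 4.9, 1.22 and 1.36 CPM in the Epi 24 plants, and 5.63, 12.8 and 3.76 CPM in the WT plants, with 2 Epi 24 stems below all others. In leaf it had 0.508, 1.46 and 0.556 CPM in the Epi 8 plants, 0.687, 0.673 and 0.731 CPM in the Epi 10 plants, and 0.679, 0.974 and 0.724 CPM in the WT plants. The stem contrast of Epi 24 with WT was log2FC -1.57 ± 0.64, unadjusted p = 0.0342, FDR = 0.807. The other *F3'H* comparisons between lines gave unadjusted p-values above 0.05.

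*FLS1*, the main flavonol synthase, was read in every organ, as *F3H* was. In root it had 49.7, 36.8 and 42.1 CPM in the Epi 8 plants, 32.6, 31.5 and 36.8 CPM in the Epi 24 plants, and 73.5, 17.6 and 67.4 CPM in the WT plants, and WT plant 2 was again the lowest of all roots while WT plants 1 and 3 were the highest. In floral stem it had 14.9, 16.7 and 5.97 CPM in the Epi 8 plants, 17.3, 3.96 and 2.29 CPM in the Epi 24 plants, and 21.6, 26.6 and 7.21 CPM in the WT plants, where 2 of the Epi 24 stems were lowest. In leaf it had 9.69, 11.6 and 12.2 CPM in the Epi 8 plants, 21.0, 15.2 and 10.3 CPM in the Epi 10 plants, and 5.53, 9.66 and 13.3 CPM in the WT plants, and Epi 10 against WT gave log2FC 0.71 ± 0.31, unadjusted p = 0.0424, FDR = 0.683. The leaf ranges of the 3 groups overlapped.

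The anthocyanin enzymes *DFR* and *LDOX* were close to the counting floor outside leaf. *LDOX* had no read in any root library, and 0.382 CPM in Epi 24 plant 3 and 0.0565 CPM in WT plant 2 were its only values above 0 in floral stem. *DFR* was read in 1 of 9 stems and in 3 of 9 roots, with a highest value of 0.94 CPM in Epi 24 root plant 2. A count of 0 allowed up to 0.154 to 0.182 CPM in a stem library and 0.120 to 0.134 CPM in a root library, at 3 counts, which covers counting error only. In leaf, *DFR* had 0.278, 2.64 and 0.87 CPM in the Epi 8 plants, 3.23, 0.336 and 0.195 CPM in the Epi 10 plants, and 0.0914, 0.0464 and 4.84 CPM in the WT plants, and *LDOX* had 0.18, 2.08 and 0.556 CPM in the Epi 8 plants, 1.37, 0.673 and 0.292 CPM in the Epi 10 plants, and 0.222, 0.294 and 2.48 CPM in the WT plants. One plant of each group stood out for *DFR*: Epi 8 plant 2, Epi 10 plant 1 and WT plant 3. The mean of *DFR* was 1.26 ± 1.23 CPM for Epi 8 leaves, 1.25 ± 1.71 for Epi 10 leaves and 1.66 ± 2.75 for WT leaves (SD, n = 3 plants each), so that the SD was close to the mean in Epi 8 and above it in Epi 10 and WT. Epi 8 against WT was log2FC -0.38 ± 1.44, FDR = 0.906 for *DFR* and log2FC -0.07 ± 1.00, FDR = 0.975 for *LDOX*, and Epi 10 against WT was log2FC -0.41 ± 1.43, FDR = 0.951 and log2FC -0.36 ± 1.00, FDR = 0.935.

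*MYB12*, the flavonol regulator, did not follow the enzyme genes in root. There it had 4.9, 5.44 and 5.45 CPM in the Epi 8 plants, 4.62, 4.39 and 5.12 CPM in the Epi 24 plants, and 2.25, 6.82 and 1.93 CPM in the WT plants. WT root plant 2, which was lowest for *CHI*, *F3'H* and *FLS1* among the WT roots and for *CHS* and *F3H* as well, was the highest for *MYB12*. In floral stem it had 2.0, 2.1 and 2.68 CPM in the Epi 8 plants, 1.63, 1.11 and 3.76 CPM in the Epi 24 plants, and 1.38, 2.26 and 1.39 CPM in the WT plants, and in leaf it was at 0.0655, 0.112 and 0.314 CPM in the Epi 8 plants, 0.258, 0.22 and 0.26 CPM in the Epi 10 plants, and 0.0784, 0.108 and 0.323 CPM in the WT plants. No comparison of lines gave an unadjusted p under 0.05 with the required fold.

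*PAP1*, the MYB activator of anthocyanin genes, had 9.73, 12.5 and 11.7 CPM in the Epi 8 plants, 10.5, 7.7 and 8.09 CPM in the Epi 10 plants, and 3.42, 4.96 and 21.5 CPM in the WT plants in leaf. WT plant 3 was the highest of all leaves and WT plants 1 and 2 were the lowest, so that the epi-line leaves lay inside the WT range with a small spread. Epi 8 against WT was log2FC 0.18 ± 0.53, FDR = 0.877, and Epi 10 against WT was log2FC -0.19 ± 0.53, FDR = 0.937. Without WT leaf plant 3 the Epi 8 contrast was 1.43 with FDR = 0.0395, which is a call, among 170 genes called of 20233, and the Epi 10 contrast was 1.06 with FDR = 0.374. In floral stem *PAP1* had 0.512, 1.94 and 1.28 CPM in the Epi 8 plants, 0.641, 0.846 and 2.94 CPM in the Epi 24 plants, and 0.607, 0.339 and 0.182 CPM in the WT plants. The Epi 8 stems overlapped WT (log2FC 1.72 ± 0.80, FDR = 0.579), and all Epi 24 stems lay above all WT stems (log2FC 1.95 ± 0.80, unadjusted p = 0.035, FDR = 0.807), at low read counts. In root all 9 libraries were at 0.

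*TT8*, the bHLH partner, had too few reads to be tested in any organ. Its highest value was 0.314 CPM in Epi 8 floral stem plant 2, and in leaf it had 0.0328, 0.112 and 0.145 CPM in the Epi 8 plants, 0.137, 0.0647 and 0 CPM in the Epi 10 plants, and 0, 0.0464 and 0.277 CPM in the WT plants. In root it was at 0 in all 9 libraries. The leaf floor of 3 counts was 0.0388 to 0.0725 CPM.

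**Figure D3:**
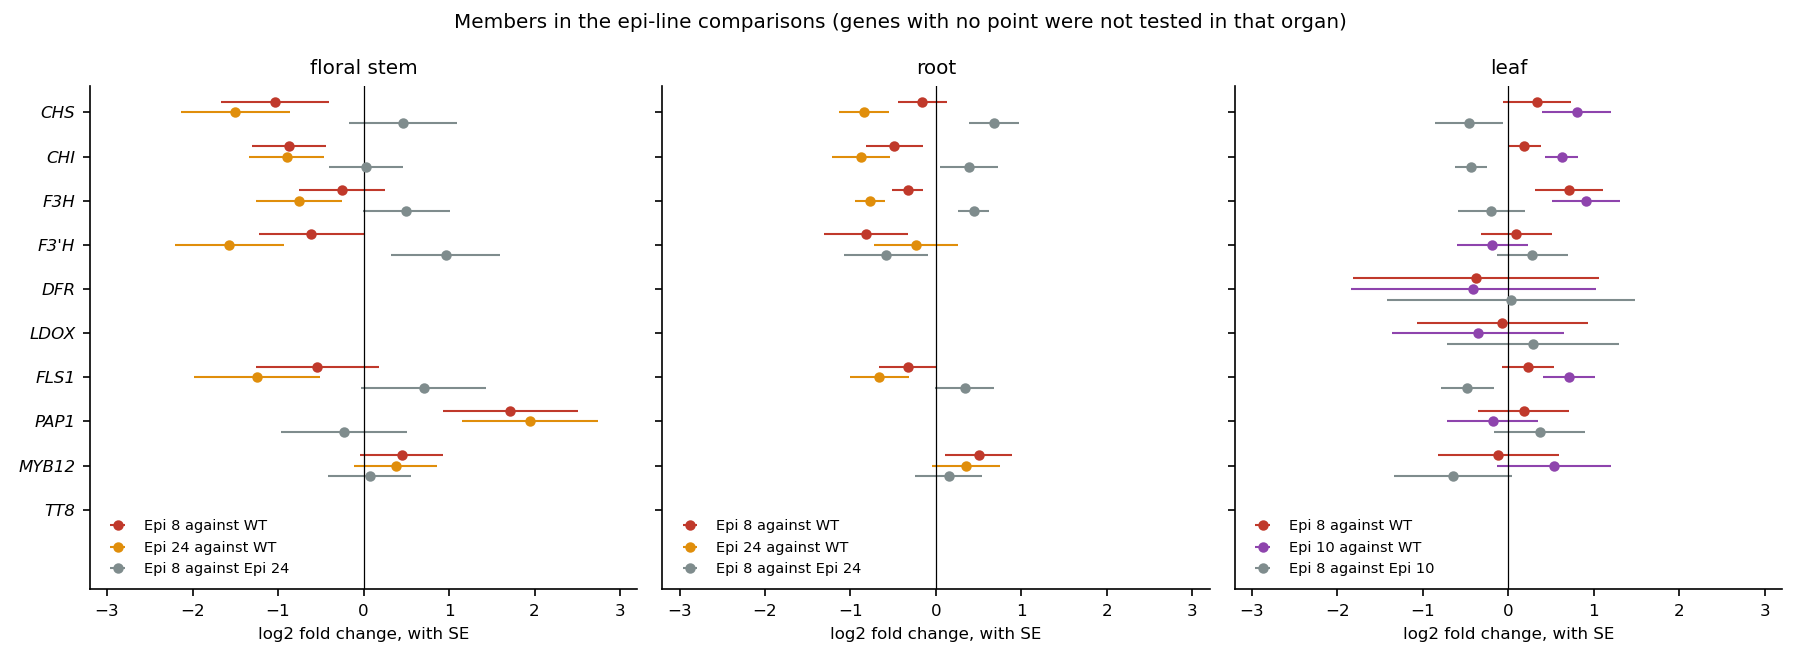
Log2 fold change of each tested member in the 9 comparisons of lines within an organ, as points with bars of 1 SE from edgeR, the first-named line over the second. Epi 24 against WT in root lay below 0 for 5 of its 6 tested members, Epi 10 against WT in leaf above 0 for 5 of 9, and no point passed the FDR limit.

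Counted over the members, no comparison of lines gave a call. In floral stem, where 7 members had enough reads to be tested (*DFR*, *LDOX* and *TT8* had not), 0 of 7 were called in Epi 8 against WT, in Epi 24 against WT and in Epi 8 against Epi 24, by edgeR and by DESeq2 alike. The share of all genes called was 0.0255%, 0% and 0.0153% in these comparisons, so that a count of 0 of 7 says little about the members. At an unadjusted p under 0.05 with the required fold, the counts were 0 of 7 for Epi 8 against WT, beside 7.23% of all genes, 3 of 7 for Epi 24 against WT, beside 5.08%, and 0 of 7 for Epi 8 against Epi 24, beside 14.2%. Those 3 were *CHS* and *F3'H*, lower in Epi 24, and *PAP1*, higher in Epi 24. Groups did not overlap for *CHI* in Epi 8 against WT (1 of 7, beside 12.2% of all genes), for *PAP1* in Epi 24 against WT (1 of 7, beside 9.88%) and for 0 of 7 in Epi 8 against Epi 24 (beside 26.4%). The median log2FC of the tested members was -0.54 in Epi 8 against WT and -0.90 in Epi 24 against WT, where the medians over all genes were 0.01 and 0.00. Both comparisons share the same WT plants.

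In root, 6 members were tested (*DFR*, *LDOX*, *PAP1* and *TT8* had too few reads). Again 0 of 6 were called by either tool in Epi 8 against WT, Epi 24 against WT and Epi 8 against Epi 24, with 0%, 0% and 0.0192% of all genes called. At an unadjusted p under 0.05 with the required fold there were 0 of 6 in Epi 8 against WT, beside 3.02% of all genes. For Epi 24 against WT there were 3 of 6, beside 3.7%: *CHS*, *CHI* and *F3H*, all lower in Epi 24. Epi 8 against Epi 24 had 1 of 6, beside 5.2%, and this was *CHS*, higher in Epi 8. *F3H* was the 1 of 6 members without overlap in Epi 24 against WT, beside 10.7% of all genes, and in Epi 8 against Epi 24, beside 17.3%, and in Epi 8 against WT there was 0 of 6, beside 13.7%. The median log2FC of the members was -0.33 in Epi 8 and -0.72 in Epi 24 against the shared WT plants, with a median of 0.00 over all genes in both.

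In leaf, 9 members were tested, all but *TT8*. None of the 9 was called by either tool in Epi 8 against WT, Epi 10 against WT or Epi 8 against Epi 10, where 0.953%, 0% and 0% of all genes were called. At an unadjusted p under 0.05 with the required fold, Epi 8 against WT had 0 of 9, beside 7.11% of all genes, and Epi 8 against Epi 10 had 0 of 9, beside 1.5%. Epi 10 against WT had 3 of 9, beside 2.25%: *CHI*, *F3H* and *FLS1*, all higher in Epi 10. Groups did not overlap for 0 of 9 in Epi 8 against WT, beside 25.9% of all genes, and for *CHI* alone in Epi 10 against WT, beside 13.7%, and in Epi 8 against Epi 10, beside 13.6%. The median log2FC was 0.18 in Epi 8 and 0.53 in Epi 10 against the shared WT plants, with medians of 0.01 and -0.01 over all genes.

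Whether a line's effect differed between organs was tested as an interaction in the fit of all libraries, over the 6 members with reads in every group (*CHS*, *CHI*, *F3H*, *F3'H*, *FLS1* and *MYB12*). *LDOX* and *PAP1* had no read in root and *DFR* was near the floor outside leaf, so that nothing is read from their values. None of the 6 passed for the Epi 8 effect in floral stem minus that in root, where 0.316% of all genes were called, nor for the Epi 24 effect in floral stem minus that in root, where 0% were. None passed for the Epi 8 effect in leaf minus that in root (0% of all genes called) or for the Epi 8 effect in leaf minus that in floral stem (0.29%). At an unadjusted p under 0.05 with the required fold the count was 0 of 6 in all 4 interactions as well. The share of all genes at that limit is not given here, so that nothing about the members is read from this count.

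Within groups, several members were high or low together from plant to plant. With each group's mean taken off the log2 CPM (prior count 2), *CHS* went with *F3H* at a Pearson r of 0.88 over the 27 libraries (0.82 without the 2 libraries farthest from the *CHS* median), with *FLS1* at 0.85, with *CHI* at 0.64 and with *F3'H* at 0.53. Among all tested genes *F3H* ranked 1 and *FLS1* 2 by this r, but *CHI* ranked 122 and *F3'H* 470. *DFR*, *LDOX*, *PAP1* and *MYB12* ranked 2497, 4519, 5242 and 9136, so that many genes outside the pathway went with *CHS* more closely. In leaf alone, over 9 libraries, *CHS* went with *FLS1* at 0.97 and with *F3H* at 0.95. *MYB12* went with *CHS* at 0.06 over all libraries, at 0.67 in leaf and at -0.77 in root, or -0.56 in root without the 2 farthest libraries. The leaf value rests on only 4 to 21 *MYB12* reads per library. These coefficients describe plants of 9 groups, and the points of an organ share growth conditions and library preparation.

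In leaf the late genes were high in the same plants. *DFR* went with *LDOX* at r = 0.94 over the 9 leaf libraries (0.92 without the 2 farthest) and with *PAP1* at 0.86 (0.65 without them). WT leaf plant 3 was the highest of its group for 9 of the 10 members, all but *F3'H*, and for all 9 genes of the list of anthocyanin decoration and transport. Epi 10 leaf plant 1 was highest for 8 of 10 members and 8 of the 9 list genes, and Epi 8 leaf plant 2 for 6 of 10 and 7 of 9. At the other end, WT leaf plant 1 and Epi 8 leaf plant 1 were the lowest of their groups for 9 members each.

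Several of these list genes varied as widely as *DFR*, and others did not. *UGT79B1*, which adds xylose to anthocyanins, had 0.164, 1.86 and 0.894 CPM in the Epi 8 plants, 2.04, 0.298 and 0.0812 CPM in the Epi 10 plants, and 0.0784, 0.0309 and 3.9 CPM in the WT plants, and went with *DFR* at r = 0.99. *TT19*, a glutathione transferase that carries anthocyanins to the vacuole, had 0.573, 1.92 and 1.91 CPM in the Epi 8 plants, 1.67, 1.14 and 0.114 CPM in the Epi 10 plants, and 0.30, 0.124 and 4.59 CPM in the WT plants. *5MAT*, the malonyltransferase, had 0.131, 0.721 and 0.0725 CPM in the Epi 8 plants, 0.824, 0.0517 and 0.0325 CPM in the Epi 10 plants, and 0.0784, 0.0155 and 0.862 CPM in the WT plants. The high plants were Epi 8 plant 2, Epi 10 plant 1 and WT plant 3 for *UGT79B1* and *5MAT*. *MYB113*, a relative of *PAP1* on the list of activators, had 0.0819, 0.384 and 0.0966 CPM in the Epi 8 plants, 0.618, 0.155 and 0.0974 CPM in the Epi 10 plants, and 0.0523, 0.0927 and 1.08 CPM in the WT plants and was highest in the same 3 plants. On the list of decoration and transport, *BGLU10*, *UGT84A2* and *SCPL10* stayed within 33.0 to 41.1, 20.9 to 30.4 and 3.70 to 7.47 CPM in the WT leaves. WT leaf plant 3 had 74280022 counted reads, beside 90808615 in plant 1 and 74855153 in plant 2, and the part of depth in the pattern was not tested.

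**Figure D4:**
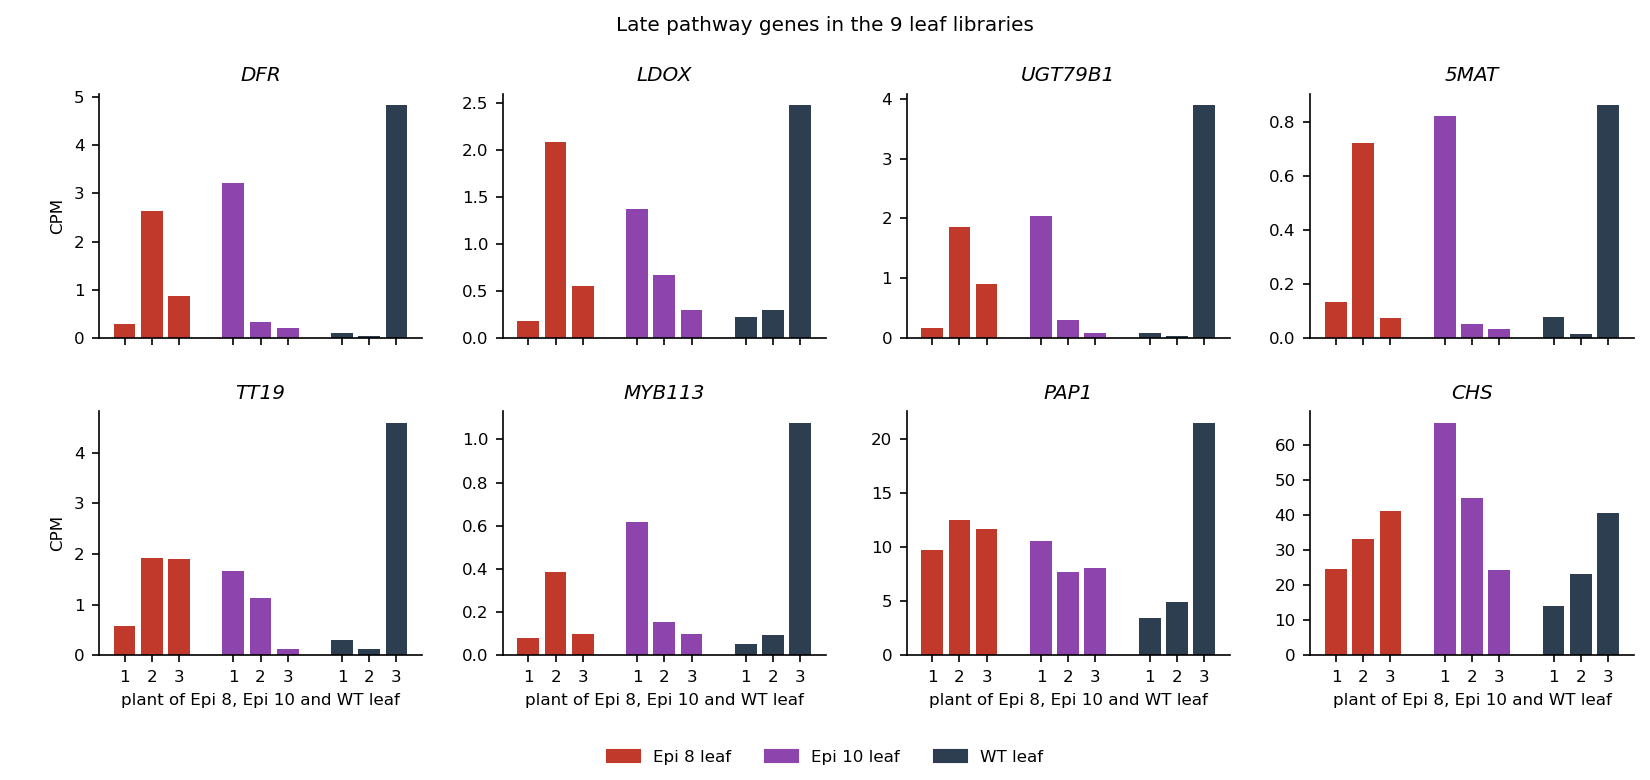
Levels of *DFR*, *LDOX*, 4 further late genes and regulators, *PAP1* and *CHS* in the 9 leaf libraries, as 1 bar per plant in CPM from 0, with Epi 8, Epi 10 and WT from left to right. Epi 8 plant 2, Epi 10 plant 1 and WT plant 3 were the highest of their groups for all of these but *CHS*, whose highest Epi 8 leaf was plant 3.

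In floral stem the early genes differed between plants of one line as well. WT plant 2 was highest for 7 of the 9 members with reads and WT plant 3 lowest for 6 of 9. The summed CPM of *CESA4*, *CESA7* and *CESA8*, cellulose synthases of secondary walls that mark vessel and fibre cells, also varied widely: 1665, 507 and 1197 in Epi 8, 3683, 3872 and 4297 in Epi 24, and 1174, 2060 and 5933 in WT. Epi 24 had the narrowest range, and WT plant 3 combined the highest sum with the lowest *CHS* of the WT stems. For the coefficients that follow, over the 9 stems, no group mean was taken off, so that differences between lines enter them. The summed CPM of the cellulose synthases went with *CHS* at r = -0.42 (-0.59 without the 2 farthest stems), with *F3H* at -0.44, with *F3'H* at -0.38 and with *FLS1* at -0.50. With *CHI* and *MYB12* it went at -0.17 each, and with *PAP1* at -0.34, or 0.37 without the 2 farthest stems. Its part in the *CHS* and *F3'H* values of Epi 24 was not tested.

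**Figure D5:**
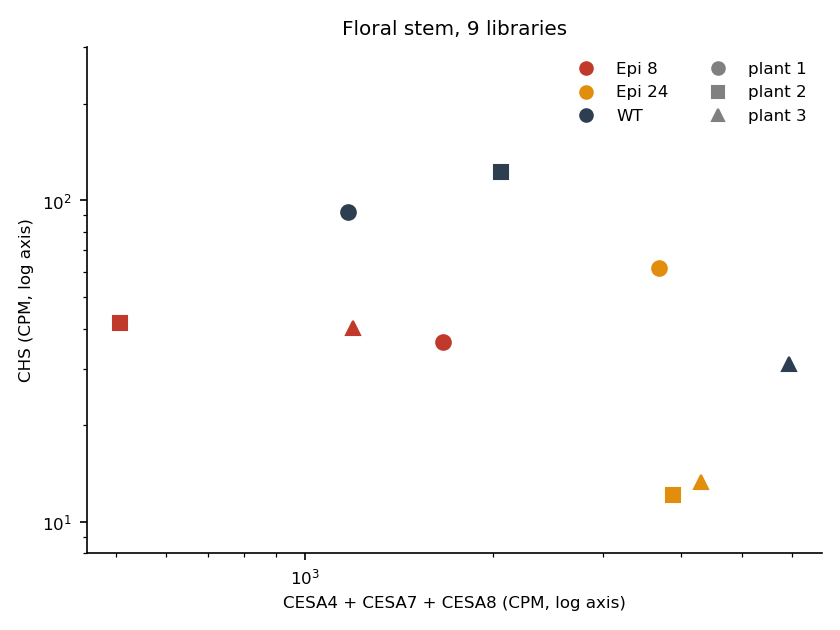
*CHS* level against the summed level of *CESA4*, *CESA7* and *CESA8* in the 9 floral stem libraries, both in CPM on log axes, with colours for Epi 8, Epi 24 and WT and symbols for plants 1, 2 and 3. WT plant 3 lay lowest of the WT stems for *CHS* and highest of all for the sum, and the points show r = -0.42 with no group mean taken off.

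Around the members, 57 further genes on 7 lists cover the rest of the pathway, and 0 of them were called by edgeR in any of the 9 comparisons of lines. At an unadjusted p under 0.05 with the required fold, 7, 2 and 5 of 44 tested genes passed in Epi 8 against WT, Epi 24 against WT and Epi 8 against Epi 24 in floral stem. The shares of all genes there were 7.23%, 5.08% and 14.2%. In root 3, 4 and 1 of 43 passed in the same order, beside 3.02%, 3.7% and 5.2% of all genes. In leaf 4 of 51 passed in Epi 8 against WT, 4 in Epi 10 against WT and 0 in Epi 8 against Epi 10, beside 7.11%, 2.25% and 1.5% of all genes. In floral stem the smallest p-values stood on the lists of repressors and light inputs. *MYB4*, a repressor of phenylpropanoid genes, had 90.6, 70.0 and 67.3 CPM in the Epi 8 plants, 56.8, 35.2 and 34.6 CPM in the Epi 24 plants, and 31.6, 37.7 and 26.2 CPM in the WT plants. All Epi 8 values lay above all WT values, at a log2FC of 1.27 ± 0.23 with FDR = 0.102. *HYH*, a bZIP factor of the light response, had 28.4, 16.2 and 15.1 CPM in the Epi 8 plants, 13.4, 4.76 and 4.64 CPM in the Epi 24 plants, and 6.95, 8.47 and 2.36 CPM in the WT plants, with a log2FC of 1.76 ± 0.54 and FDR = 0.337 in Epi 8 against WT. Other values near the top of their lists were *MYB7* (log2FC 1.12 ± 0.29, FDR = 0.807 in Epi 24 against WT), *LBD39* (log2FC 3.36 ± 1.13, FDR = 0.234 in Epi 8 against Epi 24), *RUP2* (log2FC 0.87 ± 0.30, FDR = 0.242 in Epi 8 against Epi 24) and *CHIL* (log2FC -0.66 ± 0.25, FDR = 0.482 in Epi 8 against WT). The *LBD39* value went with 1 plant, Epi 8 plant 1, which had 850 reads beside 39 and 44 in the other Epi 8 stems and 46, 27 and 11 in the Epi 24 stems. *CHIL*, a chalcone isomerase-like protein that assists CHS, and *CHI* were both lower in value in Epi 8 stems than in WT stems. *CHIL* was picked by its p, and the 8 tested flavonol branch genes had a median log2FC of 0.14 there, from -0.77 to 1.16. The activators gave *MYB11* (log2FC -4.07 ± 1.64, FDR = 0.807 in Epi 24 against WT), *GL3* (log2FC 1.80 ± 0.81, FDR = 0.301 in Epi 8 against Epi 24) and *EGL3* (log2FC -0.66 ± 0.34, FDR = 0.832 in Epi 24 against WT), and none passed. *MYB11* had only 3, 0 and 0 reads in the Epi 24 stems and 19, 37 and 0 in the WT stems. The other genes with the smallest p of their lists were *PAL2*, *4CL3*, *C4H*, *FLS3*, *FLS2*, *SCPL10*, *BGLU10*, AT4G14090, *AHA10* and *COP1*, with FDR values from 0.303 to 0.84.

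In root, *PAL4* (log2FC -0.65 ± 0.16, FDR = 0.252 in Epi 8 against Epi 24), a phenylalanine ammonia lyase, had the smallest p of the lists. The flavonol branch gave *UGT78D1* (log2FC -0.85 ± 0.28, FDR = 0.673 in Epi 24 against WT), a flavonol rhamnosyltransferase, *CHIL* (log2FC -0.67 ± 0.24, FDR = 0.673 in Epi 24 against WT) and *FLS5* (log2FC 0.39 ± 0.12, FDR = 0.673 in Epi 24 against WT). The first 2 of these had lower values in Epi 24 than in WT, as did *CHS*, *CHI* and *F3H*. These list genes were picked by their p, and the median log2FC of all 9 tested flavonol branch genes was -0.24. The regulators gave *TTG2* (log2FC -0.98 ± 0.39, FDR = 0.698 in Epi 24 against WT), *LBD38* (log2FC 0.35 ± 0.12, FDR = 0.673 in Epi 24 against WT), *LBD37* (log2FC 0.32 ± 0.14, FDR = 0.718 in Epi 24 against WT) and *SPL9* (log2FC -1.63 ± 0.72, FDR = 0.88 in Epi 8 against WT). LBD37 and LBD38 are repressors of anthocyanin genes that respond to nitrogen. The other genes with the smallest p of their lists were *C4H*, *4CL1*, *SCPL10*, *UGT84A2*, *BGLU10*, *TT10*, *AHA10*, *TTG1*, *EGL3*, *COP1*, *RUP2* and *UVR8*, with FDR values from 0.416 to 0.962.

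In leaf, *MYB11* (log2FC 1.60 ± 0.57, FDR = 0.166 in Epi 8 against WT), *MYB114* (log2FC 2.24 ± 0.91, FDR = 0.207 in Epi 8 against WT), *UGT78D3* (log2FC 1.50 ± 0.56, FDR = 0.182 in Epi 8 against WT) and *TTG1* (log2FC 0.21 ± 0.08, FDR = 0.192 in Epi 8 against WT) led among the activators and the flavonol branch. Leaf levels were low for *MYB114* (0.0154 to 0.362 CPM), *UGT78D3* (0.0914 to 0.491 CPM) and *MYB11* (0.0784 to 1.09 CPM), beside a floor of 0.0388 to 0.0725 CPM. *TTG1* had 42.7 to 51.6 CPM. Only uniquely aligned reads were counted, so that reads common to *MYB113* and the neighbouring, similar *MYB114* were dropped. In Epi 10 leaves the repressors gave *MYBL2* (log2FC -0.55 ± 0.23, FDR = 0.683 in Epi 10 against WT), *MYB7* (log2FC 0.70 ± 0.25, FDR = 0.683 in Epi 10 against WT) and AT1G23390 (log2FC -0.51 ± 0.17, FDR = 0.683 in Epi 10 against WT), the last a Kelch repeat-containing F-box protein. The light inputs gave *RUP2* (log2FC 0.87 ± 0.33, FDR = 0.683 in Epi 10 against WT), and decoration gave *BGLU10* (log2FC 0.36 ± 0.13, FDR = 0.683 in Epi 10 against WT). The other genes with the smallest p of their lists were *C4H*, *PAL2*, *PAL4*, *UGT78D1*, *UGT78D2*, *UGT84A2*, AT1G03495, *AHA10*, *COP1* and *HYH*, with FDR values from 0.256 to 0.919.

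Between organs, 36 of 50 further genes tested were called in WT root against WT floral stem, beside 60.9% of all genes. In WT leaf 31 were called against WT floral stem, beside 60.3%, and 37 against WT root, beside 68.5%. On the list of decoration and transport 4, 3 and 4 of 9 tested genes were called in the same order. In WT root against WT floral stem, 9 of 9 tested genes of the flavonol branch were called, 5 higher and 4 lower in root, beside 60.9% of all genes. In WT leaf against WT root 7 of 9 were, 1 higher and 6 lower in leaf, beside 68.5% of all genes. *FLS5*, a member of the flavonol synthase family, reached at most 0.308 CPM in leaf, ran from 332 to 499.7 CPM over the 9 root libraries and was at 0 in all 9 stems. *FLS2*, another member of that family, was highest in floral stem, with 2.19 to 4.05 CPM in leaf, 1.73 to 4.94 CPM in root and 39.7 to 122 CPM in floral stem. *MYB111*, the flavonol activator related to *MYB12*, had 2.18 to 6.47 CPM in leaf and 0.709 to 8.80 CPM in floral stem, but reads in only 1 of 9 root libraries. *MYB12* was lowest in leaf, so the 2 activators had their lowest levels in different organs. *MYBL2*, a repressor of anthocyanin genes, had 5.75 to 14.9 CPM in leaf, 0.864 to 5.56 CPM in root and 33.6 to 94.1 CPM in floral stem. The bHLH genes *GL3* and *EGL3* were highest in root, at 4.41 to 8.12 CPM and 7.25 to 12.6 CPM.

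The 10 genes whose deviations from the group mean were most like those of *CHS* over the 27 libraries were *F3H* (r = 0.876), *FLS1* (0.853), *ABC1* (AT4G01660, 0.821), *SCPL10* (0.807), *VSP1* (0.798), AT3G45680 (0.791), AT4G27560 (0.784), AT3G46540 (0.781), AT2G43550 (0.768) and AT4G17480 (0.768). Of the 10, 2 are thus members and *SCPL10*, an acyltransferase that adds sinapoyl groups to anthocyanins, is on the decoration list. Of the further pathway genes outside this top 10, AT1G06000, *4CL3*, *MYB111* and *CHIL* stood at 0.77, 0.75, 0.74 and 0.72. For *PAP1* the 10 most similar genes were AT1G67520 (0.8), AT2G44930 (0.777), AT1G32690 (0.772), *GSTU6* (0.754), AT4G26210 (0.743), AT4G30330 (0.739), AT4G39360 (0.732), AT5G19100 (0.727), AT2G39420 (0.724) and AT2G44860 (0.718). None of these is on the pathway lists, and the nearest member was *LDOX*, at rank 16 with 0.702. *PAP1* and *LDOX* had no read in the 9 root libraries, which therefore hold no deviation of these 2 genes. The root spread of any other gene still enters its coefficient with *PAP1* and lowers it in size.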

How the data were processed

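The deposited files held raw read counts per gene, 1 file per library, which the authors made by trimming, unique alignment to TAIR10 with STAR 2.7.3a and counting with QoRTs. The authors used edgeR 3.26.8. Their setting for strand is not given in the sources used here, and reads that match several places were dropped. The 10 members and the pathway lists were chosen with earlier results of these data known. Counts were tested with edgeR 4.0.16 (R 4.3.3): filterByExpr by group, TMM scaling, quasi-likelihood test, Benjamini-Hochberg FDR over all tested genes. A call needed an FDR under 0.05 and a log2FC of at least 0.5 in size. Lines were compared within the 9 libraries of an organ, and organs and interactions within all 27. SE was taken from the log2FC and the root of its F statistic. CPM used the TMM scale of the 27 libraries, and log2 CPM a prior count of 2. The scripts were tested on simulated data. DESeq2 1.42.0, other scaling, no filter, a replicate block and leaving out plants were alternatives.

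All 10 members were named. From each list, genes called in a comparison of lines were to be named and, there being none, up to 3 with the smallest p per organ, along with the 10 genes most like *CHS* and *PAP1*. Genes whose organ levels are given (*FLS2*, *FLS5*, *MYB111*, *MYBL2*, *GL3*, *EGL3*) and *UGT79B1*, *TT19*, *5MAT* and *MYB113* were chosen after their values were seen. RefSeq names matched 32548 of 33977 gene IDs. Sequences came from RefSeq TAIR10.1. The p-values rest on the spread between plants within groups, pooled over the groups of a fit, and each epi-line group is 1 family. No 2 libraries of a group agreed within sampling noise (chi-square per degree of freedom 13.61 to 106.22).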

Additional observations from a re-analysis of the deposited data

How the results depend on the processing

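No setting changed the call of a member in a comparison of lines, with 1 exception: without WT leaf plant 3, *PAP1* was called in Epi 8 against WT, so that the number of members called there ran from 0 to 1 over the plants left out. At an unadjusted p with the required fold, 3 of 7 passed for Epi 24 against WT in floral stem, beside 5.08% of all genes. In root 3 of 6 passed for Epi 24 against WT, beside 3.7%, and 1 of 6 for Epi 8 against Epi 24, beside 5.2%. In leaf 3 of 9 passed for Epi 10 against WT, beside 2.25%. The other comparisons of lines gave 0, beside 1.5% to 14.2% of all genes. Of 725 alternative log2FC values for 66 contrasts of lines, 673 kept direction and call and 51 changed sign. Of 290 for the 27 organ contrasts, 266 kept both, 5 changed sign, 12 lost and 7 gained the call. The number of members called kept its value in 202 of 221 recomputations. It moved in 14 of 36 for the organ contrasts, between 4 and 6 in root against floral stem, 5 and 7 in leaf against floral stem and 7 and 9 in leaf against root. With scaling by DESeq2 size factors *MYB12* passed in WT root against WT floral stem (FDR = 0.0423), as it did with DESeq2 (FDR = 0.0286). The cause of these changes was not tested.

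Samples with the same number were not paired by the labels, and the correlations of their deviations ran from -0.403 to 0.241. Best with its own number were 8 of 18 library and group pairs in floral stem, 3 of 18 in root and 5 of 18 in leaf. A replicate block left the number of members called as it was in all comparisons (0 between lines, 5, 7 and 8 between organs). It turned the log2FC to 0.02 for *F3'H* in Epi 24 root, and in Epi 8 leaf to -0.01 for *F3'H*, 0.64 for *DFR* and 0.01 for *LDOX*. In Epi 10 leaf it gave 0.56 for *DFR*, 0.14 for *LDOX* and 0.16 for *PAP1*, and -0.13 for *LDOX* in Epi 8 against Epi 10. DESeq2 gave -0.0011 for *DFR* in that last comparison.

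Leaving out plants one at a time changed the sign of the following log2FC values, given as ranges. In floral stem, Epi 8 against WT: *F3H* -0.56 to 0.02 and *F3'H* -0.96 to 0.02. In Epi 24 against WT: *MYB12* -0.32 to 0.69. Epi 8 against Epi 24: *CHI* -0.33 to 0.38, *PAP1* -0.71 to 0.78 and *MYB12* -0.24 to 0.77. In root, Epi 8 against WT: *CHS* -0.47 to 0.19. Epi 24 against WT: *F3'H* -0.68 to 0.05. In leaf, Epi 8 against WT: *F3'H* -0.58 to 0.36, *DFR* -1.57 to 4.14, *LDOX* -1.48 to 1.87, *FLS1* -0.05 to 0.55, *PAP1* -0.23 to 1.43 and *MYB12* -0.91 to 0.73. Epi 10 against WT: *DFR* -2.62 to 4.11, *LDOX* -1.03 to 1.59 and *PAP1* -0.60 to 1.06. Epi 8 against Epi 10: *F3H* -0.48 to 0.33, *F3'H* -0.40 to 0.54, *DFR* -1.16 to 2.24 and *LDOX* -1.13 to 0.96. Between WT organs: *F3'H* in root against floral stem -0.51 to 0.46, *CHI* in leaf against floral stem -0.23 to 0.26 and *DFR* in leaf against root -0.28 to 8.88.

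Over all genes, edgeR and DESeq2 called 5 and 376 genes in Epi 8 against WT, 0 and 22 in Epi 24 against WT and 3 and 697 in Epi 8 against Epi 24 in floral stem. In root they called 0 and 30, 0 and 25, and 4 and 134 in the same comparisons. In leaf they called 191 and 702 in Epi 8 against WT, 0 and 21 in Epi 10 against WT, and 0 and 59 in Epi 8 against Epi 10. With 3 plants per group and levels near the floor, differences in *DFR*, *LDOX* and *TT8* outside leaf were not detectable at this depth. With 50 bases after the start added, ACGT stood in 8 of 10 members' promoters.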
